A study of Mus musculus with 9 samples.

Results

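The matricellular and adhesive glycoproteins examined here are 10 secreted proteins of the extracellular matrix, encoded by Sparc, Sparcl1, Postn, Tnc, Tnn, Thbs1, Thbs2, Thbs3, Fn1, and Vtn. The genes were chosen by name, as 10 of the 50686 genes in the deposited count table, with earlier results of these data known. All 10 passed the filter on low counts. RNA-Seq was performed on 3 groups with n = 3 libraries each. The control group was MC3T3-E1, a mouse osteoblast line, with the treatment entry "control". The treated group was the same line given 10 μM SB216763, a compound that inhibits GSK3 kinases, for 14 days. The third group was mouse pulmonary endothelial cells (ECs), isolated by FACS and not treated. The sources used here do not give the time in culture of the controls, the age or strain of the mice that provided the ECs, or whether the replicates were separate cultures or animals, so p-values measure only the spread between these libraries, which may be technical. MC3T3-E1 is a cell line, and the ECs came from lung, so the comparisons with ECs also set a line against cells of a tissue.

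Matricellular proteins are secreted into the matrix but serve less as scaffold than as regulators: they bind collagens, growth factors, proteases, and cell-surface receptors, and they change how firmly a cell holds to what surrounds it. SPARC and its relatives bind collagen and calcium, and periostin supports collagen cross-linking in bone and periosteum. Tenascins form multi-armed proteins that weaken cell adhesion. Among the thrombospondins, thrombospondin-1 activates TGF-β, and thrombospondin-1 and thrombospondin-2 act on proteases and restrain vessel growth. Fibronectin and vitronectin are adhesive proteins that integrins grip through a short RGD sequence. Osteoblasts deposit many of these proteins with type I collagen in the matrix that later mineralizes. ECs use fibronectin in their basement membrane and thrombospondin-1 as a brake on angiogenesis.

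The libraries held between 30990107 and 68946333 counts, so 3 counts in a library corresponded to between 0.0435 and 0.0968 CPM (read counts scaled to the size of the library, here after TMM normalization). The labeled cell types were checked with marker genes. A list of 6 osteoblast markers ranged in sum from 20090 to 28687 CPM in the controls, from 2826 to 2975 CPM after SB216763, and from 28.9 to 38.3 CPM in ECs, mostly from Col1a1 in the osteoblasts. Of these markers, Alpl, Ibsp, Sp7, and Col1a1 were lower after SB216763 past both cutoffs described below, with log2 fold changes of -6.17, -3.74, -3.52, and -3.17, while Bglap (-1.12) and Runx2 (-0.44) passed only the FDR cutoff. A list of 6 endothelial markers ranged from 6240 to 6426 CPM in ECs, from 3.17 to 3.96 CPM in the controls, and from 4.33 to 4.96 CPM after SB216763. Of these markers, only Vwf passed the FDR cutoff after SB216763, with a log2 fold change of 1.07 (from 1.16 to 2.42 CPM). Pecam1 (0.09), Cdh5 (0.02), Emcn (0.01), Kdr (-0.26), and Tie1 (-0.64) did not pass it. Lung epithelium markers summed to no more than 0.63 CPM in any library. Control replicate 2 stood apart from the other controls at long transcripts. Its log2 CPM differed from the mean of the other controls by a median of 0.08 over the 3236 tested genes with under 2 kb of exon, 0.01 over the 5290 genes of 4 to 8 kb, -0.08 over the 1652 genes of 8 to 12 kb, and -0.18 over the 769 genes of 12 kb or more. Fn1 at -0.81, Tnc at -0.63, Thbs1 at -0.32, Tnn at -0.30, Thbs2 at -0.24, and Thbs3 at -0.17 deviated further than the medians of their length classes. Postn at -0.05 did not. Among the shorter genes, of 2 to 4 kb, the class median was 0.06. Sparcl1 at -0.13 and Vtn at -0.08 were below that median, and Sparc at 0.10 was above it.

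Start-site sequences are shown for Tnn, Tnc, and Postn, the genes with the 3 largest falls after SB216763 among those above 100 CPM in the controls. The sequences are those of RefSeq on GRCm38.p6 and give the 250 bases before the annotated start site, 5′ to 3′ on the strand of the gene. Capitals mark the motifs found by a search of both strands.
Tnn, chr1:160153576-160153825, minus strand: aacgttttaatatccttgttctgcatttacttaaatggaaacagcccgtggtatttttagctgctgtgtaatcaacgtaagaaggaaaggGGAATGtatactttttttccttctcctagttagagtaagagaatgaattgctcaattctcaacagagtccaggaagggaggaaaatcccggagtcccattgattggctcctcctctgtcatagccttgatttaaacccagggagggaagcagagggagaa
Tnc, chr4:64047016-64047265, minus strand: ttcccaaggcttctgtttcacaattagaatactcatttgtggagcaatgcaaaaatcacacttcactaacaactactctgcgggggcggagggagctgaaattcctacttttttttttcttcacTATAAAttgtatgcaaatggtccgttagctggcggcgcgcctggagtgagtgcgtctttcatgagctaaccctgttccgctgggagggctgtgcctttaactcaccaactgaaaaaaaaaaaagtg
Postn, chr3:54360857-54361106, plus strand: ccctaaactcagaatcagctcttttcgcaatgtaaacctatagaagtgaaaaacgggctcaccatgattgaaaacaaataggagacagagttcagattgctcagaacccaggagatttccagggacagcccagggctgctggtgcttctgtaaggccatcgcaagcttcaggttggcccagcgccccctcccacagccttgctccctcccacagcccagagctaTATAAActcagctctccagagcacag

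The start site of Tnc was also the first base of its gene model, that of Tnn lay 5 bases inside the model, and that of Postn lay 2 bases before it. RefSeq windows of 300 bases, with 250 bases before and 50 after the start, were found for 7 of the 10 genes. Sparcl1, Thbs1, and Fn1 were without one. The search covered the letters ATCAAAG for TCF/LEF, the factors through which β-catenin acts, TGANTCA for AP-1, AACCACA for RUNX, CATTCC for TEAD, and TATAAA for the TATA box, on both strands. None of the 9 windows of the 7 genes held the TCF/LEF, AP-1, or RUNX letters, which 3.73%, 7.81%, and 5.27% of all 32851 windows held. TATAAA began at -26 from the Postn start and at -126 from the Tnc start, and it was also found for Vtn and Thbs2 among 13.6% of all windows. The TEAD letters stood at -160 before Tnn, and also in the Vtn window, among 14.7% of all windows. These matches describe letters only, and the RNA data do not test them.

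Most of these genes were lower after SB216763 treatment. Tested with edgeR's quasi-likelihood test and the Benjamini-Hochberg FDR over 15531 genes, 6 of the 10 passed the cutoffs (a log2 fold change of 2 or more in size and an FDR under 0.01) as lower in SB216763-treated osteoblasts than in controls, namely Sparc, Postn, Tnc, Tnn, Thbs1, and Vtn. Among all genes tested, 5.84% passed as lower. Vtn passed the filter on low counts through the controls only (mean 0.837 CPM, against 0.0833 after SB216763 and 0.0946 in ECs). Its direction was therefore set by the filter, and it adds no support to the counts of lower genes. Sparcl1 alone passed as higher, against 3.81% of all genes. With the FDR cutoff and no fold cutoff, 8 were lower and 1 was higher, against 32.0% and 32.9% of all genes, and the additional genes were Thbs2 and Thbs3. Fn1 passed neither. The median log2 fold change of the 10 was -2.24, compared with 0.01 over all genes tested. In bulk RNA, fewer cells that express a gene and less RNA of that gene per cell cannot be told apart.

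**Figure D1:**
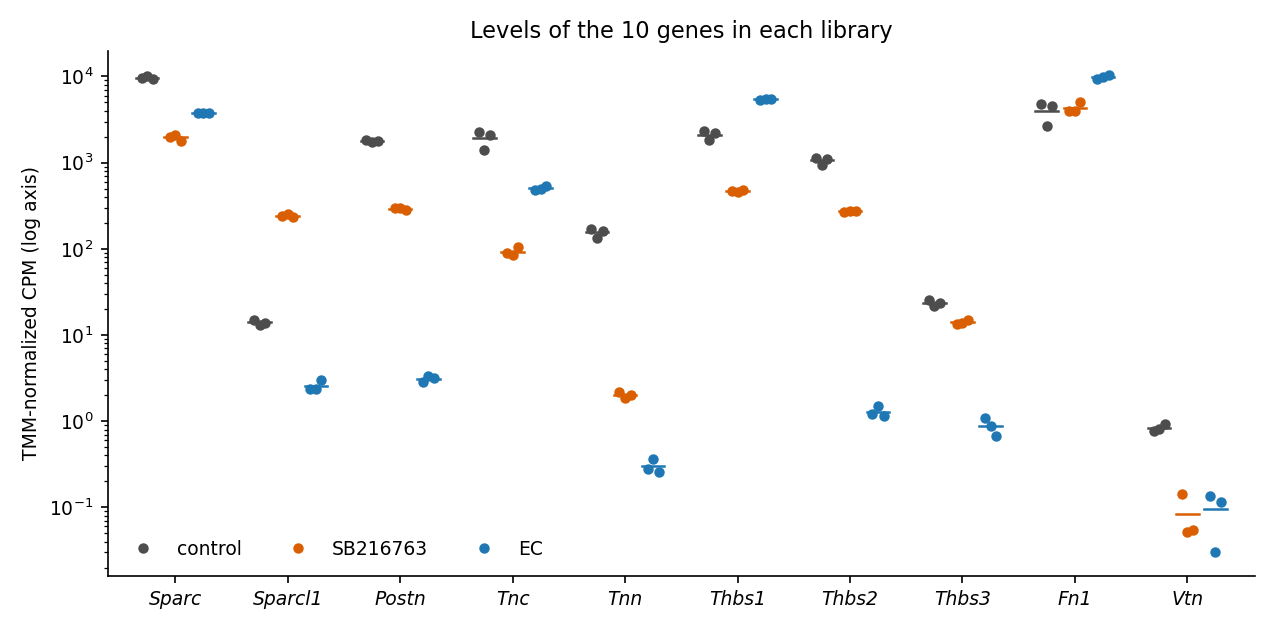
Level of each gene in each library, as TMM-normalized CPM on a log axis. Points are libraries, with n = 3 per group, and short lines are group means. The SB216763 points overlap the control points for Fn1, lie above them for Sparcl1, and lie below them for the other genes. For Vtn that direction was set by the filter on low counts. The share of all genes separated in this way was not computed.

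The 10 genes together took 2.04%, 1.75%, and 1.98% of all counts in the control libraries, 0.791%, 0.781%, and 0.886% after SB216763, and 1.90%, 1.96%, and 2.05% in ECs. The totals of controls and ECs overlapped, and every treated library was below every other library. Collagen genes, the main matrix transcripts of osteoblasts, took between 5.63% and 7.36% of control counts, between 1.56% and 1.62% after SB216763, and between 1.13% and 1.21% in ECs. Sparc led in the controls, with 46.9% of the counts of the 10 genes, followed by Fn1 with 19.1% and Thbs1 with 10.2%. After SB216763, Fn1 held 56.4% and Sparc 25.6%. In ECs, Fn1 held 50.3%, Thbs1 27.8%, and Sparc 19.3%.

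**Figure D2:**
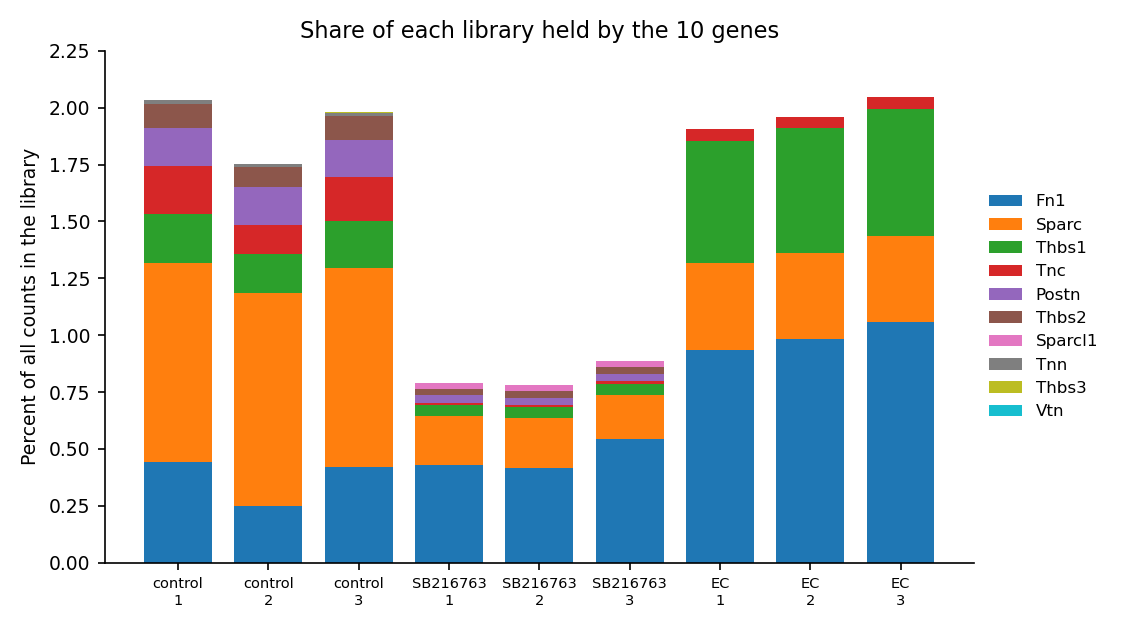
Share of all counts in each library that fell on the 10 genes, in percent, stacked by gene. The treated libraries sum to between 0.781% and 0.886%, below the 1.75% to 2.05% of the others, and the Sparc segment is the largest in the controls while Fn1 is the largest after SB216763 and in ECs.

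Sparc (ENSMUSG00000018593, chr11:55394500-55423183, minus strand), also called osteonectin, is the collagen- and calcium-binding glycoprotein for which bone matrix is known. Its control libraries gave 9507, 10103, and 9382 CPM, the SB216763 libraries gave 2002, 2068, and 1800 CPM, and the EC libraries gave 3744, 3759, and 3763 CPM. The 3 groups did not overlap, with the order control, EC, SB216763. Sparc was 4.94-fold lower after SB216763, with a log2 fold change of -2.30 (SE 0.06, adjusted p = 2.46e-14). ECs had 2.57-fold less than controls (log2 fold change -1.36, adjusted p = 6.36e-12), so treated osteoblasts were also below ECs (-0.94, adjusted p = 6.4e-10). Per kilobase of exon, Sparc was the 7th most abundant of 15504 genes in the controls at 2551 ± 102 CPM per kb (SD, n = 3), the 44th after SB216763 at 517 ± 36.9, and the 16th in ECs at 991 ± 2.69.

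Sparcl1 (ENSMUSG00000029309, chr5:104079111-104113733, minus strand) encodes hevin, the close relative of SPARC, known for its anti-adhesive action and its part in synapse formation. It went the other way. The controls gave 14.9, 13.1, and 13.9 CPM, the SB216763 libraries gave 239, 252, and 237 CPM, and the ECs gave 2.38, 2.38, and 2.97 CPM. SB216763-treated cells were far above both other groups, and ECs were the lowest. The rise was 17.4-fold, with a log2 fold change of 4.12 (SE 0.06, adjusted p = 3.87e-17). ECs were below controls by a log2 fold change of -2.43 (SE 0.09, adjusted p = 2.41e-13), so the treated cells lay 94.3-fold above the ECs. Per kilobase, Sparc exceeded Sparcl1 in all 3 groups, but the levels moved from 2551 and 4.76 CPM per kb in the controls to 517 and 82.6 CPM per kb after SB216763.

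Postn (ENSMUSG00000027750, chr3:54361109-54391037, plus strand) encodes periostin, a fasciclin-domain protein named for the periosteum, where it supports collagen cross-linking. Controls gave 1843, 1757, and 1788 CPM, SB216763 libraries 298, 298, and 281 CPM, and ECs 2.82, 3.35, and 3.15 CPM. The groups were far apart and each was tight. Postn has 8.702 kb of exon and its log2 difference in control replicate 2 from the other controls was -0.05. Postn was 6.14-fold lower after SB216763 (log2 fold change -2.62, SE 0.05, adjusted p = 7.59e-16). In ECs it was 578-fold lower than in controls (log2 fold change -9.18), and the treated osteoblasts stayed 94.2-fold above the ECs.

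The tenascins showed the deepest falls. Tnc (ENSMUSG00000028364, chr4:63959785-64047015, minus strand) encodes tenascin-C, which appears in developing, healing, and mechanically loaded tissue. Controls gave 2289, 1409, and 2077 CPM, SB216763 libraries 88.5, 84.9, and 104 CPM, and ECs 484, 498, and 533 CPM. Even the low control replicate 2 was above every EC and treated library. The level was 20.8-fold lower after SB216763 (log2 fold change -4.38, SE 0.15, adjusted p = 2.47e-13) and 3.81-fold lower in ECs than in controls (log2 fold change -1.93, SE 0.13, adjusted p = 1.15e-09), which missed the fold cutoff. Without control replicate 2 the EC difference was -2.12 and passed it. SB216763-treated cells were below the ECs by a log2 fold change of -2.45 (SE 0.14, adjusted p = 6.86e-11).

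Tnn (ENSMUSG00000026725, chr1:160085029-160153580, minus strand) encodes tenascin-N, also called tenascin-W, which is expressed at sites of bone formation. Controls gave 169, 135, and 163 CPM, SB216763 libraries 2.18, 1.85, and 2.02 CPM, and ECs 0.275, 0.365, and 0.255 CPM. These levels rested on 76, 71, and 74 counts after SB216763 and on 12, 12, and 11 counts in ECs, all above the 3-count level. Tnn was 77.3-fold lower after SB216763, the largest change among the 10 genes in that comparison (log2 fold change -6.27, SE 0.10, adjusted p = 6.28e-17). It was 522-fold lower in ECs than in controls (log2 fold change -9.04) and 6.75-fold higher in treated cells than in ECs (log2 fold change 2.77). Most of the smooth muscle markers moved with it after SB216763. The 6 listed genes ranged in sum from 2875 to 3067 CPM in controls and from 153 to 172 CPM after SB216763, mostly from Acta2, and without Acta2 from 50 to 55.4 CPM and from 18.9 to 20 CPM. Acta2 (log2 fold change -4.34), Tagln (-3.37), Cnn1 (-2.43), and Lmod1 (-2.16) were lower past both cutoffs, whereas Des was higher by the FDR alone (0.27, adjusted p = 0.00497) and Myh11 had a log2 fold change of 0.41 (adjusted p = 0.503). Cnn1 rested on 10, 17, and 4 counts in controls and on 3, 0, and 1 counts after SB216763. In ECs, Cnn1 (log2 fold change 2.55) and Myh11 (2.06) were higher than in controls past both cutoffs. Both passed the filter on low counts through the ECs only, so that direction was set by the filter. Myh11 rested on 6, 6, and 3 counts in controls and on 13, 15, and 24 counts in ECs. Acta2, Des, Lmod1, and Tagln were lower there. The part of these markers in the tenascin result was not tested.

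Thbs1 and the other thrombospondins differed in the order of the groups. Thbs1 (ENSMUSG00000040152, chr2:118111876-118127133, plus strand) encodes thrombospondin-1, an inhibitor of angiogenesis and activator of latent TGF-β that forms trimers. Controls gave 2317, 1819, and 2215 CPM, SB216763 libraries 465, 453, and 479 CPM, and ECs 5301, 5402, and 5526 CPM. ECs were the highest group and treated osteoblasts the lowest, with no overlap. Thbs1 was 4.55-fold lower after SB216763 (log2 fold change -2.18, SE 0.08, adjusted p = 5.45e-13), a value near the fold cutoff that became -1.98 when libraries were scaled by their total counts only. ECs were 2.56-fold above controls (log2 fold change 1.35, SE 0.08, adjusted p = 9.15e-11) and 11.6-fold above treated osteoblasts. Per kilobase, Thbs1 was the 21st most abundant gene in ECs at 891 ± 18.5 CPM per kb (SD, n = 3), the 120th in controls, and the 527th after SB216763.

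Thbs2 (ENSMUSG00000023885, chr17:14665500-14694235, minus strand) encodes thrombospondin-2, the other trimeric and anti-angiogenic member, known in connective tissue for its role in collagen fibril assembly. Controls gave 1128, 948, and 1106 CPM, SB216763 libraries 266, 273, and 276 CPM, and ECs 1.21, 1.52, and 1.14 CPM. Thbs2 was 3.91-fold lower after SB216763 (log2 fold change -1.97, SE 0.07, adjusted p = 2.77e-13), just short of the fold cutoff, and without control replicate 2 it passed at -2.05. In ECs it was 822-fold lower than in controls (log2 fold change -9.70), the largest fold among the 10 genes in that comparison. In ECs, then, Thbs1 was above the osteoblast level while Thbs2 was at no more than 1.52 CPM.

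Thbs3 (ENSMUSG00000028047, chr3:89215180-89226837, plus strand) encodes a thrombospondin that forms pentamers and is made in skeletal tissue. Controls gave 25.4, 21.7, and 23.4 CPM, SB216763 libraries 13.4, 13.9, and 14.8 CPM, and ECs 1.1, 0.883, and 0.672 CPM. The groups did not overlap, but the change after SB216763 was 1.67-fold lower (log2 fold change -0.74, SE 0.08, adjusted p = 3.92e-07), under the fold cutoff. ECs were 26.5-fold below controls (log2 fold change -4.73). Thbs3 shares 318 exon bases with Mtx1 on the opposite strand, which had between 375 and 888 counts per library, and the strand setting of the counting is not given in the sources used here, so reads of the shared part cannot be assigned. Tnc, Thbs1, and Fn1 likewise share 176, 208, and 292 exon bases with opposite-strand genes. Those genes had no more than 230, 2, and 27 counts in any library. Their counts do not show how reads of the shared parts were assigned.

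Fn1 (ENSMUSG00000026193, chr1:71585520-71653200, minus strand) encodes fibronectin, the adhesive protein on which cells assemble new matrix. Controls gave 4808, 2669, and 4548 CPM, SB216763 libraries 4021, 3970, and 5029 CPM, and ECs 9231, 9744, and 10500 CPM. The treated libraries lay within the range of the controls except for replicate 3, which was above it, while every EC library was above all the others. The log2 fold change after SB216763 was 0.11 (SE 0.16, adjusted p = 0.532). Fn1 is the longest of the 10 genes, with 11.685 kb of exon, and the log2 difference of control replicate 2 from the other controls was -0.81. The difference of SB216763 replicate 3 from the other treated libraries was 0.33. Without control replicate 2 the log2 fold change was -0.12 (adjusted p = 0.237), and without both of these libraries it was -0.23 (adjusted p = 0.00153, an alternative added after the values were seen), so neither its direction nor its test was settled by these libraries. The EC difference kept its direction without them. ECs were 2.45-fold above controls (log2 fold change 1.29, SE 0.16, adjusted p = 1.78e-06) and 2.26-fold above treated osteoblasts (adjusted p = 4.63e-06), and without both libraries the former was 1.06.

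**Figure D3:**
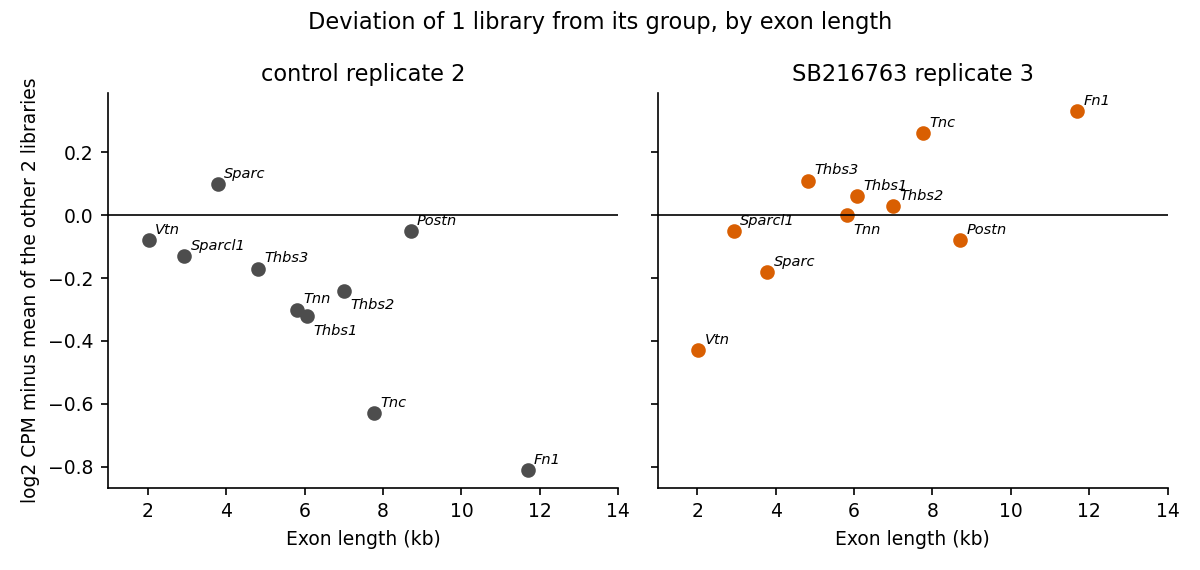
Deviation of control replicate 2 (left) and SB216763 replicate 3 (right) from the other libraries of their group, as log2 CPM, against the exon length of the 10 genes in kb. In control replicate 2, Fn1 and Tnc lie lowest, at -0.81 and -0.63, while Postn, which is longer than Tnc, lies at -0.05. In SB216763 replicate 3, Fn1 and Tnc lie highest, at 0.33 and 0.26.

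For Tnc these log2 differences were -0.63 in control replicate 2 and 0.26 in SB216763 replicate 3, and for Thbs1 the difference was -0.32 in control replicate 2. Leaving out both libraries moved their log2 fold changes after SB216763 to -4.66 for Tnc and -2.30 for Thbs1, so these falls were at least as large without them. RNA quality was not measured in the files, and its part in the deviations was not tested.

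Vtn (ENSMUSG00000017344, chr11:78499091-78502324, plus strand) encodes vitronectin, an adhesive protein of plasma that is made mainly in the liver. It had few counts in every group. Controls had 49, 44, and 27 counts, SB216763 libraries 5, 2, and 2 counts, and ECs 6, 1, and 5 counts. The controls, at 0.772, 0.801, and 0.938 CPM, were above all the other libraries, and the treated libraries and ECs overlapped. The summed counts, scaled by the normalized library sizes, gave a ratio of 0.1 after SB216763 (exact 95% interval 0.0448 to 0.197) and of 0.123 in ECs (0.0618 to 0.223), and these intervals cover counting error only. The fitted log2 fold changes were -3.28 (SE 0.39, adjusted p = 1.39e-06), which became -3.88 without SB216763 replicate 1, and -3 (SE 0.36, adjusted p = 1.32e-06), and treated cells against ECs gave -0.28 (adjusted p = 0.677), with a ratio interval of 0.304 to 2.11 that allows a difference in either direction. The 6 hepatocyte markers summed to 3.83, 3.70, and 15.7 CPM in the controls, between 3.16 and 4.59 after SB216763, and between 4.81 and 6.15 in ECs. Control replicate 3 stood apart through Alb, which was at 13 CPM there and at 3.09 and 3 CPM in the other controls. Its Vtn level was also the highest of the controls, and the part of these transcripts in the Vtn level was not tested.

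Compared with controls, ECs had 6 of the 10 genes past both cutoffs as lower, namely Sparcl1, Postn, Tnn, Thbs2, Thbs3, and Vtn, where 9.87% of all genes were lower. The direction of Vtn was again set by the filter, which it passed through the controls only. None was higher past both cutoffs in edgeR, where 13.5% of all genes were, and limma-voom and DESeq2 also gave 0. With the FDR alone, as with an unadjusted p under 0.05, 8 were lower and 2, Thbs1 and Fn1, were higher, against 37.9% and 39.0% of all genes for the FDR. The median log2 fold change of the 10 was -2.72. This comparison shares its control libraries with that of SB216763 against control, so the changes are set side by side and no overlap is drawn from them. Sparc, Tnc, and Thbs1 went to levels under those of the ECs with SB216763. Postn, Tnn, Thbs2, and Thbs3 ended between controls and ECs. Sparcl1, lower in ECs than in controls, rose.

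The direct comparison of SB216763-treated osteoblasts with ECs gave 5 genes as higher past both cutoffs (Sparcl1, Postn, Tnn, Thbs2, and Thbs3) and 2 as lower (Tnc and Thbs1), against 10.3% and 15.0% of all genes. With the FDR alone, 5 were higher and 4 lower, with Sparc and Fn1 joining the lower genes, against 38.3% and 40.3% of all genes. The log2 fold changes ran from 7.73 for Thbs2 to -3.54 for Thbs1, and their median was 1.25.

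**Figure D4:**
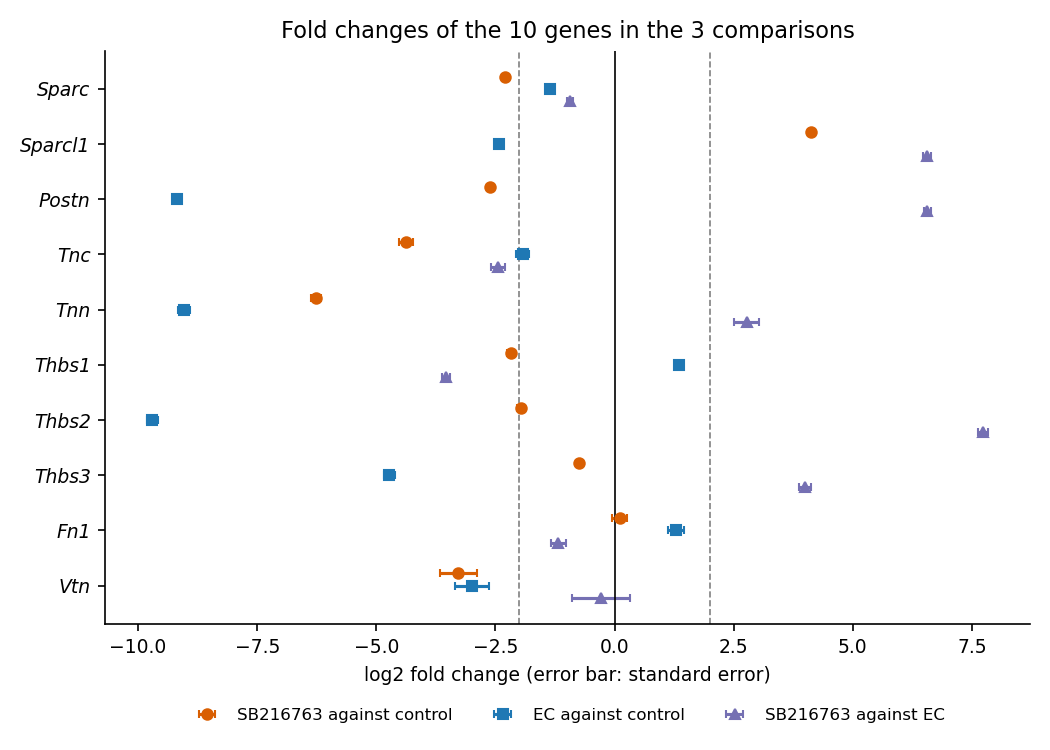
Log2 fold change of each gene in the 3 comparisons, with the standard error from the fit as bars and the fold cutoff as dashed lines. Circles are SB216763 against control, squares EC against control, and triangles SB216763 against EC. Sparcl1 at 4.12 is the only circle to the right of the cutoff, and Postn, Tnn, and Thbs2 have squares at -9.04 or lower.

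The wider families of these proteins were examined with a list of 24 relatives, including the CCN proteins, SMOCs, SPOCKs, matrilins, nidogens, and the remaining tenascins and thrombospondins, of which 18 were tested. After SB216763, 5 were lower and 1 was higher past both cutoffs, against 5.84% and 3.81% of all genes. With the FDR alone, 9 were lower and 5 higher, against 32.0% and 32.9% of all genes, so the share that was higher did not exceed that of all genes. Matn3, in both counts of lower genes, and Smoc2, in the 9, passed the filter on low counts through the controls only. Their direction was set by the filter. The median log2 fold change of the 18 was -0.65. Ccn1 (CYR61), an integrin-binding matricellular protein, fell from 208, 220.5, and 224 CPM to 32, 32.9, and 33.6 CPM (log2 fold change -2.73, SE 0.05). Ccn4 (WISP1), known as a target of Wnt signaling, fell from 224, 225, and 221 CPM to 34.3, 35.1, and 32 CPM (log2 fold change -2.72, SE 0.05). Ccn3 (NOV), another member of the CCN family, fell from 87.2, 96, and 83.4 CPM to 1.72, 2.03, and 1.82 CPM (log2 fold change -5.57, SE 0.08). The libraries of the 2 groups did not overlap for any of these genes.

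In ECs, Ccn1 was far above the controls, at 1769 ± 14.5 CPM (SD, n = 3) and a log2 fold change of 3.02 (SE 0.05), whereas Ccn3 and Ccn4 were below the controls, with log2 fold changes of -3.42 and -2.10. Over all relatives tested, ECs had 3 higher and 10 lower than controls past both cutoffs, against 13.5% and 9.87% of all genes. The 10 include Matn3 and Smoc2, which passed the filter on low counts through the controls only. Their direction was set by the filter.

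Spock2, a proteoglycan with a SPARC-like domain, fell from between 114 and 126 CPM to between 19.1 and 20.4 CPM (log2 fold change -2.59, SE 0.06). Matn3, a matrilin of cartilage, fell from 435, 426, and 198 counts to 1, 1, and 1 counts, a ratio of 0.00379 (exact 95% interval 0.000781 to 0.0111, counting error only). Like Vtn, Matn3 passed the filter on low counts through the controls only, so its direction was set by the filter. Matn2, a matrilin of more widespread matrices, was the relative that rose, from 62.5, 68.3, and 64.8 CPM to 439.6, 449, and 422 CPM (log2 fold change 2.74, SE 0.05, adjusted p = 2.17e-16). It was lower in ECs than in controls, at 17.1 ± 0.768 CPM (SD, n = 3). Matn2 and Sparcl1 were thus both highest in the treated osteoblasts and lowest in ECs.

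The receptors for these proteins, were examined with a list of 17 genes for integrin chains, syndecan-4, stabilins, CD36, CD47, and others, of which 16 were tested. After SB216763, 3 were lower and 1 was higher past both cutoffs, against 5.84% and 3.81% of all genes, and the median log2 fold change was 0. Itgb3, the β3 chain of the vitronectin receptor, rose from 20.2, 18.2, and 19.3 CPM to 113, 112, and 117 CPM (log2 fold change 2.57, SE 0.05, adjusted p = 4.17e-16). ECs had 271, 276, and 284 CPM, so the treated libraries lay between the other groups. Itga9, a tenascin-C-binding integrin chain, fell from between 37.5 and 42.1 CPM to between 6.65 and 7.28 CPM (log2 fold change -2.52, SE 0.07). Plaur, the urokinase receptor, which also binds vitronectin, fell from between 33.3 and 34.9 CPM to between 7.41 and 7.83 CPM (log2 fold change -2.16, SE 0.06). Stab1, a scavenger receptor that takes up SPARC, fell from 3.78, 3.50, and 4.31 CPM to 0.774, 0.730, and 0.817 CPM (log2 fold change -2.29, SE 0.12). In ECs, Stab1 (637 ± 28.5 CPM) and Plaur (136 ± 6.17 CPM) were above the controls, and Itga9 (3.74 ± 0.306 CPM) was below them (SD, n = 3). Stab1 and Plaur thus fell away from the EC level, while Itga9 moved toward it. Macrophages also make Stab1, and the 6 leukocyte markers, mostly Lyz2, ranged in sum from 26.1 to 27.7 CPM in controls and from 8.28 to 9.83 CPM after SB216763, with Cd3e at no more than 3 counts. Lyz2 was at 26 ± 1.15 CPM in controls and 7.04 ± 0.832 CPM after SB216763 (SD, n = 3), while the macrophage marker Cd68 went the other way, from 0.532 ± 0.194 to 1.63 ± 0.0822 CPM (log2 fold change 1.63, adjusted p = 1.66e-06). Their part in the Stab1 result was not tested.

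**Figure D5:**
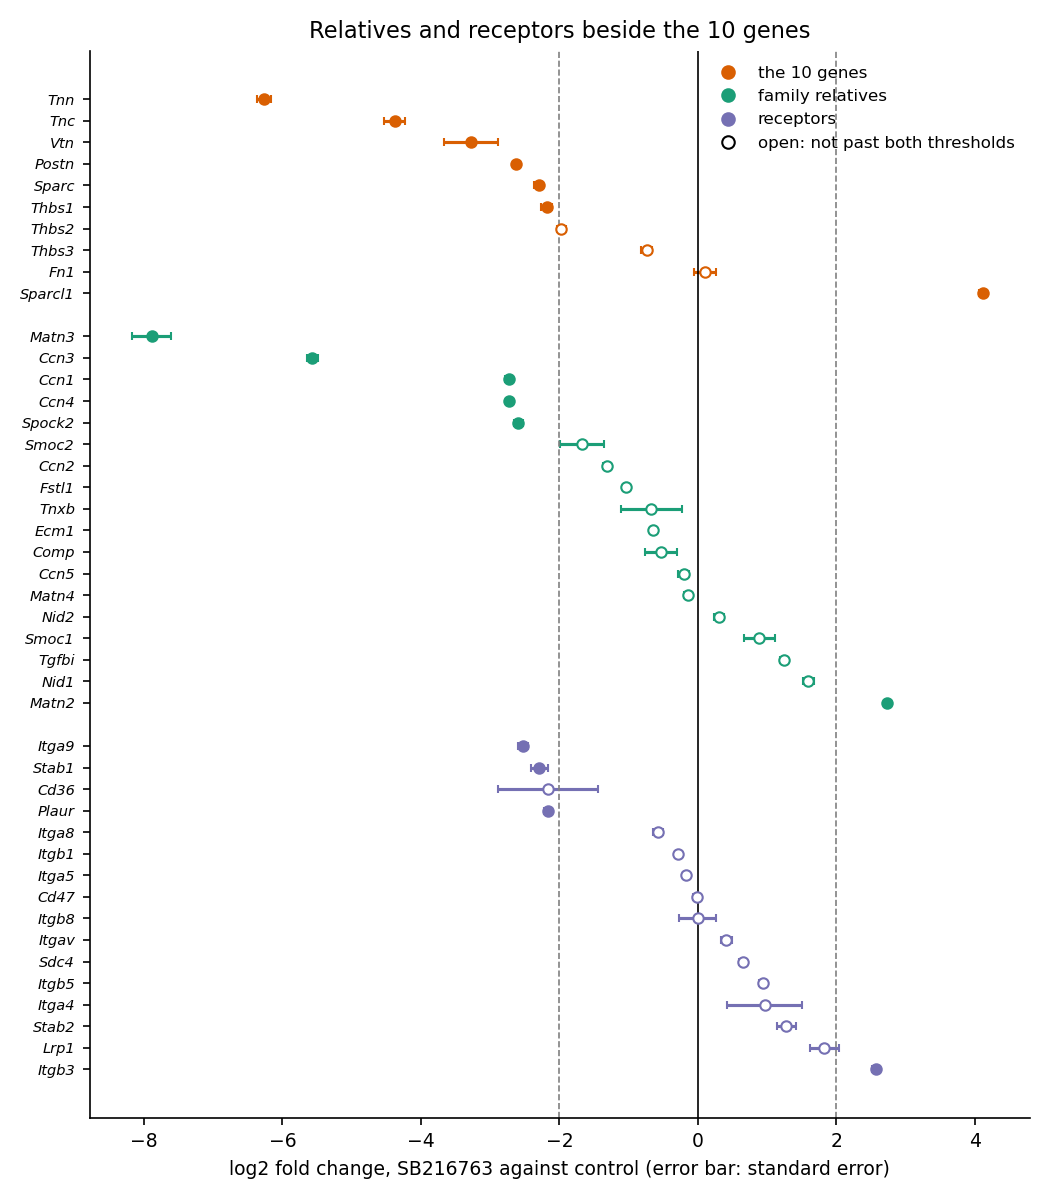
Log2 fold change of SB216763-treated against control osteoblasts for the 10 genes, 18 relatives, and 16 receptors, with standard errors as bars. Filled circles passed both cutoffs, and dashed lines mark the fold cutoff. Filled circles lie to the right for Sparcl1, Matn2, and Itgb3 and to the left for 6 of the 10 genes, 5 relatives, and 3 receptors.

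The genes whose pattern was closest to each of the 10 were found by the root-mean-square difference of log2 CPM, centered per gene over the 9 libraries, among 10241 candidate genes. The 9 libraries fall into 3 groups, so likeness mostly means a like change between groups. Sparc was closest to Pdia5, an endoplasmic reticulum protein disulfide isomerase (difference 0.10), Csrp2 (0.11), and Mvk (0.13). Sparcl1 was closest to Slc9a9 (0.27), Aldh3a1 (0.35), and Spp1, the bone matrix protein osteopontin (0.38). Postn was closest to Cavin4 (0.22), Sec16b (0.25), and Jph2 (0.26), and Thbs2 to Runx3, a RUNX-family transcription factor (0.13), Gm31520 (0.18), and Jph2 (0.24). Spp1 rose from 210.1 to 4556 CPM after SB216763 and was at 26.7 CPM in ECs, the same order of groups as Sparcl1.

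Tnc was closest to Inhba, which encodes a subunit of activin A (0.26), Sorcs2 (0.26), and Apobr (0.27). Tnn was closest to 2610300M13Rik (0.24), Actg2, a smooth muscle actin (0.36), and Rnf43 (0.48). The genes close to Thbs1 included Slc8a1 (0.13) and Ablim1 (0.16), and Thbs3 was closest to C1ra (0.18), Itga8 (0.18), and 3830403N18Rik (0.21). Fn1 was closest to Prkdc (0.08), Helz2 (0.09), and Macf1, a very large cytoskeletal linker (0.10). For Vtn, with few counts, the 3 closest genes, Snx7, Dhcr7, and Gm17501, were each 0.40 away, farther than the closest gene of each of the other 9.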

How the data were processed

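Reads were aligned and counted by the authors with STAR, version 2.5.3a on GRCm38 according to the submitters' processing notes, and the deposited values are raw counts of 50686 genes. Libraries were made from total RNA with the KAPA HyperPrep kit and sequenced on an Illumina HiSeq instrument. The annotation release and strand setting are not given in the sources used here. Each of the 9 columns was matched to a library by name. The protocol text of the labels is the same for every sample, so groups were taken from titles and treatment entries. Symbols were found for 50376 identifiers and gene models (GENCODE M21, GRCm38) for 50462.

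With edgeR 4.0.16 (R 4.3.3), genes were filtered with filterByExpr, libraries were normalized by TMM, and 1 quasi-likelihood fit of all 9 libraries gave 3 comparisons. The standard error of a log2 fold change came from its F statistic, with a prior count of 0.125. The common biological coefficient of variation was 0.0554. Replicates differed by more than sampling noise (chi-square per gene between 3.049 and 115.03). The tests were tried on simulated counts with known changes. Alternatives used limma-voom (limma 3.58.1), DESeq2 1.42.0, other scalings, filters, cutoffs and prior counts, a replicate block, fits of 2 groups, and fits with libraries left out.

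The 10 genes, the lists and the motifs were chosen with earlier results of these data known. Named genes were the 10, every relative or receptor past both cutoffs in SB216763 against control, and the 3 genes most like each of the 10 with a mean of at least 10 CPM in a group, apart from a gene that is not reported here. Marker genes were named beside the results they moved with, after their values were seen.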

Additional observations from a re-analysis of the deposited data

How the results depend on the processing

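Counts of the 10 genes past the cutoffs kept within 1.5 times their main value in 135 of 138 alternatives. The exceptions were the genes higher in ECs than in controls, 2 in place of 0 when a log2 fold change of 1 was enough and 2 with the FDR alone, and the genes lower in treated osteoblasts than in ECs, 4 in place of 2 with the FDR alone. Of 599 alternatives for the single genes, 587 kept direction and side of the cutoffs. Thbs1 after SB216763 missed them with scaling by library size (-1.98), which put the median of all genes at 0.22 in that comparison and 0.13 for ECs against controls, in place of 0.01 in both, and with glmTreat at the fold cutoff (adjusted p = 0.0469). Vtn missed that test too (adjusted p = 0.0177 after SB216763 and 0.0144 in ECs). Thbs2 after SB216763 (-2.05) and Tnc in ECs (-2.12) passed without control replicate 2. Fn1 after SB216763 turned to -0.12 without control replicate 2, to 0 without SB216763 replicate 3 (adjusted p = 0.999), and to -0.23 without both, and its values with libraries left out ran from -0.23 to 0.26. Vtn in treated cells against ECs was 0.05 without EC replicate 1 (adjusted p = 0.959), and ran from -0.86 to 0.05 with libraries left out. The cause of these shifts was not tested.

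Same-numbered libraries of different groups had deviations from their group means that correlated across genes between -0.0392 and 0.123, not over 0.1 in every pair, so the numbers were not taken to pair the libraries. Under the replicate block, 581 genes were higher and 901 lower after SB216763, compared with 592 and 907 without it, and the block gave 1 higher and 6 lower among the 10 genes, as the fit without it did. Depth limited the values of Vtn, and those of Matn3 in treated osteoblasts, which rested on few counts.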
